A study of Mus musculus with 12 samples.

Results

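Transcript signals of fed mouse liver were read from 3 of the 12 arrays of a fasting study, chosen by array titles that give 0 h of fasting. Each array was a 2-colour mouse oligonucleotide array that carried green (Cy3) cDNA from RNA pooled from 2 fed livers. It also carried red (Cy5) cDNA from a reference pool of 6 fed livers, and that same reference lay on all 12 arrays. All mice were male, of strain FVB and 6 weeks old, with chow at will, with 6 livers of each group on the arrays, and no transgene or drug was named for any of them. The other groups of 3 arrays came from mice without chow for 12, 24 or 72 h, all killed in the morning. Fed array 1 held livers 1 and 2, fed array 2 livers 3 and 4, and fed array 3 livers 5 and 6. The reference was labelled as livers 1 to 6, so both dyes carried RNA of fed livers with the same numbers, and the dyes were never exchanged. The pools are the replicates here (n = 3), and no liver was measured alone.

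The hepatocyte, the main cell of the liver, makes and secretes most plasma proteins, among them carriers of lipid, iron and hormones, clotting factors and complement. It also disposes of amino-acid nitrogen as urea, makes and stores glucose, handles fatty acids and cholesterol, and conjugates foreign compounds. It is rich in mitochondria, whose own small genome encodes several subunits of the respiratory chain.

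A signal is the median pixel brightness of a spot minus the median of its local background, in scanner units. Of all spots on the array, 20280 carried a probe that was neither a control nor marked as retired. Of these, 9198 had a gene name, 7140 names in all. The brightness of a spot depends on its probe as well as on the transcript, so ranks between genes order spots and not numbers of transcripts. The highest signals were 65138 to 65169 units in Cy3 and 65171.5 to 65300 in Cy5, and spots that the software marked as saturated have no order among themselves.

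Array 1 was dimmer than the other pair. Its median signal was 279 in Cy3 and 144 in Cy5, against 528 and 388.5 on array 2 and 523.5 and 262 on array 3. Spots marked as outliers by the scanner software were left out, and these were 0.745% of probes on array 1, 24.7% on array 2 and 14.1% on array 3, so that 13221 probes had a usable spot on all 3 arrays. The software called 98.2 to 99.3% of probes well above background in Cy3 and 95.3 to 97.0% in Cy5. The 95th percentile of the negative-control spots set another limit. In Cy3, 3379, 282 and 500 of 20280 probes were at or below it on arrays 1, 2 and 3, and in Cy5 891, 362 and 804. Array 1 was quantified on the same day as an array at 12 h and an array at 24 h, whereas arrays 2 and 3 shared a day with all arrays at 72 h, so pool and day cannot be told apart between array 1 and the rest.

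The brightest spots in fed liver included nearly all probes of the mitochondrial genome, several of secreted plasma proteins, and many of repeat sequence or without a gene name. A probe was called brightest if it lay in the top 1% of usable spots of its channel in both channels on every fed array with a value, with at least 2 arrays measured. The top 1% began at 5910, 20512 and 15303.5 units in Cy3 on arrays 1, 2 and 3, and at 4626.5, 21242 and 10766 in Cy5. This gave 83 probes, of which 37 had a gene name (32 names). Sorted by kind, the 83 were 29 named probes of nuclear genes, 16 of the mitochondrial genome, some of them also with a name, 15 described as repeat sequence and 23 others with no gene name. The array held 17 probes of the mitochondrial genome and 324 of repeat sequence. In all, 17 probes were saturated in both channels on all 3 arrays. These classes were made by rank, so their membership is a description with no test.

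Serpina1e, an alpha-1-antitrypsin secreted as a protease inhibitor, was saturated on all 3 arrays in both channels. So were the probe named for Afp, the alpha-fetoprotein best known as a fetal plasma protein, and Apoe, a ligand for the clearance of lipoprotein remnants. The brightest probe of mt-Nd3, a subunit of respiratory complex I, was saturated as well. A spot that carries the name Ptgs2 but is described as mitochondrial cytochrome c oxidase subunit II was also saturated throughout, and it is called by its description here.

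Ttr, the carrier of thyroxine and of the retinol-binding protein, was saturated in Cy3 on all arrays, with 63382.5 units in Cy5 on array 1 and saturation in Cy5 on the other arrays. Apoa1, the main protein of high-density lipoprotein, was saturated in Cy3 on all arrays and gave 37379, 59422 and 61088.5 units in Cy5 on arrays 1, 2 and 3. Trf, the iron carrier transferrin, was likewise saturated in Cy3, and its Cy5 signals were 43692, 53615 and 60612.5. In Cy5, both Apoa1 and Trf were lowest on array 1. Ftl1, the light chain of the iron store ferritin, gave 65160, 65133 and 65104 units in Cy3, at or next to saturation, and 54958, 65166 and 65144 in Cy5.

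Promoter sequence is shown for 3 of these secreted-protein genes and, for contrast, for Ptms and Hspg2, which were also among the brightest but differed several-fold in raw signal between arrays. Each run is the 250 bases before the gene's start in RefSeq (GRCm38.p6), written 5′ to 3′ on the gene's strand, and capitals mark CG steps, which read the same on both strands.
Apoa1, chr9:46228380-46228629, plus strand: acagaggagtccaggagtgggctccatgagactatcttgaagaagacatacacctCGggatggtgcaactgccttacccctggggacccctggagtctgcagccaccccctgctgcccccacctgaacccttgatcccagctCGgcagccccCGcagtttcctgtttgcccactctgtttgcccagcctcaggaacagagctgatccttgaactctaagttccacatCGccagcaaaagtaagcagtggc
Serpina1e, chr12:103956898-103957147, minus strand: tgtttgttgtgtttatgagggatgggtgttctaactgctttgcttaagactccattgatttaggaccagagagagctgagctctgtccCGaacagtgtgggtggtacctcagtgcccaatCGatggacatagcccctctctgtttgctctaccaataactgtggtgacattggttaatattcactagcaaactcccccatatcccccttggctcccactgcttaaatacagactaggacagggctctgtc
Afp, chr5:90490464-90490713, plus strand: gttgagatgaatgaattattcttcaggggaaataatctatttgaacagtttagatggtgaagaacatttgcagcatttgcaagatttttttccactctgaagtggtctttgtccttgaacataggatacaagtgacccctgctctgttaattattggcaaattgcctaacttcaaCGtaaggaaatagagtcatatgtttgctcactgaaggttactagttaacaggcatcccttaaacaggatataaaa
Ptms, chr6:124917947-124918196, minus strand: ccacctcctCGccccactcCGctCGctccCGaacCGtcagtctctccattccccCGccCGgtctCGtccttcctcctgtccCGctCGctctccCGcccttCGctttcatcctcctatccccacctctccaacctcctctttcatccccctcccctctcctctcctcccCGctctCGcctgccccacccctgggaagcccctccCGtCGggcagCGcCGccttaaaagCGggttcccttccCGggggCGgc
Hspg2, chr4:137468553-137468802, plus strand: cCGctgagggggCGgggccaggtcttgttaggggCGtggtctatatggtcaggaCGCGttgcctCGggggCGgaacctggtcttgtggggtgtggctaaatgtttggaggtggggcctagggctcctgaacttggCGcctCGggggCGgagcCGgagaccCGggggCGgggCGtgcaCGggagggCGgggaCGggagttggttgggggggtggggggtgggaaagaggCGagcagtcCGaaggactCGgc

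The runs of Apoa1, Serpina1e and Afp held 4, 2 and 1 CG steps, against 21 for Ptms and 20 for Hspg2. Of all 27025 promoters in that table, 91.7% held at least 1 CG step and 17.7% held 20 or more. Promoters were matched for 22 of the 27 nuclear genes that named brightest probes, and their median ratio of observed to expected CG was 0.545. It was 0.378 over all promoters in the table, 0.739 over the 5243 genes with a match among all named probes and 0.846 over 22 of 24 genes near background. The brightest genes had a median of 8.5 CG steps, and 27.3% of them held 20 or more, against 35.1% of the genes of all named probes. The promoters printed do not stand for the class. For the intermediate class under 80% of genes had a match, so no value is given. A CG count describes the sequence only and was not tested against signal.

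Below saturation, the brightest named genes fell by raw signal into those with like signals on all 3 arrays and those that were far dimmer on array 1. Mgst1, a microsomal glutathione transferase, gave 50346, 49823 and 42835 units in Cy3 on arrays 1, 2 and 3 and 43480.5, 43030 and 44255 in Cy5. Gpx1, the cytosolic glutathione peroxidase, gave 44247, 44117 and 42648 in Cy3 and 25757.5, 30689 and 34367 in Cy5. Selenop, a plasma protein that carries selenium, gave 37463.5 and 37685.5 in Cy3 and 34841.5 and 36763.5 in Cy5 on arrays 1 and 2, and its spot on array 3, with 47778.5 in Cy3 and 37631 in Cy5, was left out as an outlier. Mgst1 was thus not lower on array 1, though that array had the lowest median signal in both channels. Like raw signals did not always stay alike after the normalization given below. Log2 Cy5 signals on arrays 1, 2 and 3 were then 14.85, 13.93 and 14.90 for Gpx1 and 15.28, 14.95 and 15.12 for Mgst1.

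Eef1a1, an elongation factor of protein synthesis, gave 35127, 38124.5 and 44497 in Cy3 and 30855, 34239 and 41306.5 in Cy5. The probe named DBP, VDB, described as the vitamin D-binding protein, gave 36662, 33594 and 28749.5 in Cy3 and 30596, 32117 and 30992.5 in Cy5. B2m, the light chain of class I histocompatibility molecules, gave 22954, 23156.5 and 19617 in Cy3 and 24474, 21608 and 26523 in Cy5. None of these 3 genes was several-fold lower on array 1. Adh1, an alcohol dehydrogenase, had its spot on array 2 left out and gave 15440 and 20989 in Cy3 on arrays 1 and 3 and 12974 and 16466 in Cy5. Cyb5a, the electron carrier cytochrome b5, ran from 21287.5 to 27257 in Cy3, and Tpt1, a translationally controlled protein, from 21329.5 to 25554. Phyh, a peroxisomal enzyme that hydroxylates phytanic acid, gave 24859, 24109.5 and 29362 in Cy3, yet its 20362 units in Cy5 on array 2 put it just outside the top 1% there.

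The other kind was low on array 1. Actc1, the alpha-actin of heart muscle, gave 9085, 56741 and 43057.5 in Cy3 and 11001, 61001 and 31203 in Cy5. Ptms, the small acidic protein parathymosin, gave 11967, 57901 and 37138 in Cy3 and 12569, 55710.5 and 28624 in Cy5. Hspg2, the basement-membrane proteoglycan perlecan, gave 8414, 46223 and 33187.5 in Cy3 and 9115, 46881 and 21695.5 in Cy5. Both channels of array 1 were low together for each of these genes. Ube2s, a ubiquitin-conjugating enzyme of mitosis, and Clptm1, a membrane protein named for cleft lip and palate, had the same form, with 8676.5 and 11056 in Cy3 on array 1 against 40394 to 50075 and 34992 to 45907 on the other arrays. These are raw units, and array 1 was dimmer as a whole. After the normalization given below, array 1 minus the mean of arrays 2 and 3 was -1.60 log2 units in Cy3 and -1.09 in Cy5 for Actc1. It was -1.17 and -0.82 for Ptms, -1.38 and -0.82 for Hspg2, -1.52 and -0.82 for Ube2s and -1.06 and -0.47 for Clptm1. The named probes just inside the top 1% were MGC19060, B2m and Daam1, and those just outside were Ap1m1, Cnpy3 and Phyh. MGC19060 gave 5925 units in Cy3 on array 1, just inside, and Ap1m1 gave 5789, just outside.

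**Figure D1:**
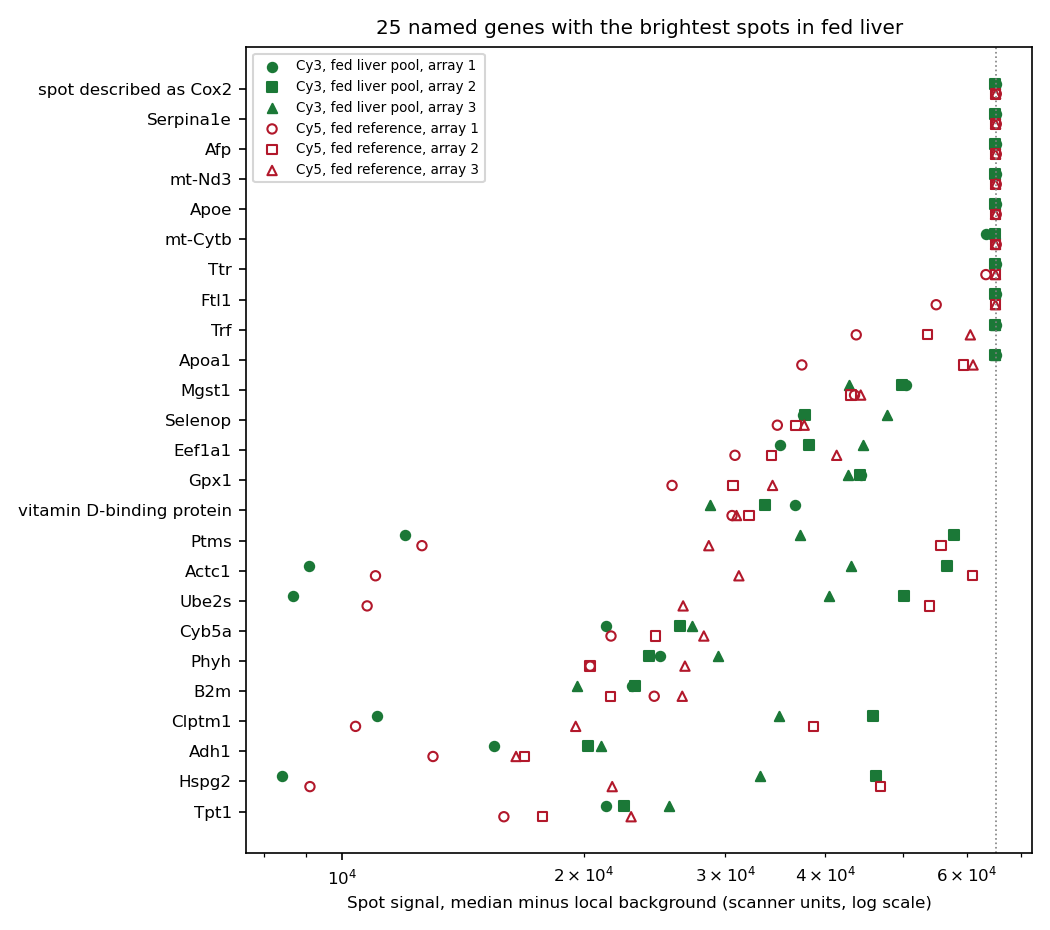
Signals of the 25 named genes with the brightest spots, on a log axis in scanner units, with Cy3 (fed liver pool) filled and Cy5 (fed reference) open, and a mark shape for each of the 3 arrays. The dotted line marks saturation. Ptms, Actc1, Ube2s, Clptm1 and Hspg2 sit far lower on array 1 in both channels, for example Actc1 at 9085 and 11001, while Mgst1 stays between 42835 and 50346.

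Different probes of a single gene did not always rank alike. Of the genes among the brightest, 5 had more than 1 probe, and for 3 of these the probes lay over 3 log2 units apart. A second probe for Trf gave only 417 and 754 units in Cy3 on arrays 1 and 2, with its spot on array 3 left out, where the first was saturated. A second probe for Bcl2l1, an inhibitor of apoptosis, gave 683.5, 2097.5 and 2024.5 in Cy3, against 9585.5, 37192.5 and 28689 for the first. For Dnajc3, a co-chaperone of the endoplasmic reticulum, the probes went in opposite directions between arrays, with 7572, 24607 and 20831.5 in Cy3 for the brighter and 2746.5, 993 and 791 for the dimmer. The 3 probes of mt-Nd3 were all saturated or nearly so, and those of mt-Cytb, the cytochrome b of complex III, spanned 24515.5 to 65126 in Cy3.

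Lists of genes with known roles were placed by the percentile of each probe, averaged over both channels and the 3 arrays. The median was 57.7 over all named probes and 49.9 over all probes. Of the 29 lists, the highest medians with more than 2 probes were those of secreted plasma proteins (97.4, 10 probes), cytosolic ribosomal proteins (96.6, 48 probes) and complement and acute phase proteins (96.1, 7 probes). The lowest was that of lymphocyte markers (37.6, 5 probes). Only part of each list was on the array, for example 9 of 42 plasma proteins and 2 of 14 hepatocyte markers. The places are descriptions, and members of a list are not replicates.

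Among secreted plasma proteins, 4 of 10 probes were brightest, namely Serpina1e, Ttr, Trf and Selenop, and 9 lay above the 75th percentile. Fetub, fetuin B, gave 6994, 10479.5 and 10761 units in Cy3 and 4934, 9408.5 and 7128 in Cy5. The dimmest probe of the list was the second one of Trf described above, at percentile 65.7. Apolipoproteins and lipoprotein handling had a median of 86.4 over 9 probes, 2 of them brightest (Apoa1 and Apoe). Apoa4, an apolipoprotein of triglyceride-rich particles, gave 1783, 3335.5 and 2949 in Cy3. The endocytic receptor Lrp1, the dimmest of the list, gave 211 and 258.5 in Cy3 on arrays 1 and 3. The 3 apolipoproteins named here thus stood above Lrp1.

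Complement and acute phase genes had 6 of 7 probes above the 75th percentile. Mbl2, a mannose-binding lectin, gave 5981, 6804 and 5762 in Cy3 and 4582, 4897 and 5261 in Cy5, a narrow band at percentile 96.3. Lbp, the lipopolysaccharide-binding protein, was the dimmest, with 583.5, 754 and 482 in Cy3. Of the coagulation factors 4 were on the array, with a median of 84.6. Klkb1, plasma prekallikrein, gave 5816, 4934.5 and 4060.5 in Cy3, and Pros1, the anticoagulant protein S, had 1 usable spot, of 202 units in Cy3 on array 1.

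Enzymes of amino-acid breakdown and of the urea cycle had a median percentile of 90.1 over 18 probes, 15 of them above the 75th percentile and none among the brightest. Tdo2, which opens the tryptophan ring, was the brightest with 23555 and 20005 in Cy3 and 22486 and 15191 in Cy5 on arrays 1 and 2, its spot on array 3 being left out. Ass1, the urea-cycle enzyme that joins citrulline and aspartate, gave 8767.5 and 17288 in Cy3 and 3025 and 10186 in Cy5 on the same arrays. The mitochondrial carrier Slc25a13 was the dimmest, with 304, 244 and 269.5 in Cy3.

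Glycolysis, gluconeogenesis and glycogen had a median of 90.7 over 19 probes. Gapdh, the glycolytic dehydrogenase, gave 6574, 8510 and 8050.5 in Cy3 and 3391, 7698 and 7284 in Cy5. Pck1, which commits carbon to gluconeogenesis, gave 4857.5 and 4923.5 in Cy3 on arrays 1 and 2, with the spot on array 3 left out, and the hexokinase of muscle and fat, Hk2, gave 192 on array 1 and had no other usable spot. Fatty-acid and cholesterol synthesis had a median of 79.8 over 23 probes. The desaturase Scd1 gave 6977.5, 5662 and 5856 in Cy3, while the 2 probes of Fasn, the fatty-acid synthase, gave 806.5, 3376 and 2909.5 and 415.5, 2170.5 and 1750. Scd1 was highest on array 1 and both Fasn probes were lowest there.

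Fatty-acid oxidation and ketone-body synthesis had a median of 84.5 over 18 probes, with 15 above the 75th percentile. Acsl1, which activates long-chain fatty acids, gave 6862, 6324.5 and 6835 in Cy3 and 5968.5, 5535.5 and 7041 in Cy5. No array stood apart for Acsl1. The tricarboxylic-acid cycle had a median of 79.6 over 29 probes, electron transport and ATP synthase 93.3 over 27, and proteasome subunits 75.6 over 30. Ndufa4, of the respiratory chain, gave 11661, 13726 and 16110 in Cy3.

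Conjugation and oxidative-stress defence had a median of 93.1 over 17 probes, with Mgst1, Gpx1 and Adh1 among the brightest. Gpx4, the peroxidase of membrane lipids, was the dimmest, with 215.5, 272 and 279 in Cy3 and 61, 45 and 35 in Cy5. Of 43 cytochrome P450 genes and partners listed, 7 were on the array, and their 9 probes had a median of 53.7. Cyp7b1, an oxysterol hydroxylase, gave 3296.5, 2954.5 and 2974 in Cy3, and Cyp19a1, the aromatase, gave 142.5, 131 and 152.5. Of 12 male-biased liver genes listed 2 were on the array, Serpina1e and Cyp7b1, and of 12 female-biased ones also 2, Cyp17a1 and Hao2, the latter at 201, 247 and 251 in Cy3.

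Regulators lay near the middle. Nuclear receptors and liver transcription factors had a median of 55.9 over 32 probes, with 6 above the 75th percentile. Cebpb, a factor of acute and metabolic responses, gave 2596.5, 2581 and 2708.5 in Cy3 and 2413, 2726 and 2213 in Cy5, the highest of the list. Ppara, the receptor that responds to fatty acids, gave 900, 893 and 1204.5 in Cy3 and 531, 738 and 810.5 in Cy5. Circadian clock genes had a median of 59.2 over 13 probes. Noct, a rhythmic phosphatase also known as nocturnin, was the highest with 801.5, 6283 and 4419 in Cy3, and Clock gave 172, 141 and 154.

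Cell type markers were read next to these, and in a whole-liver extract fewer cells of a type and less RNA per cell cannot be told apart. Both hepatocyte markers on the array, Ttr and Apoa1, were among the brightest. Macrophage and Kupffer cell markers had a median of 81.2 over 6 probes, with Csf1r, the receptor for macrophage colony-stimulating factor, at 1690 and 11711 in Cy3 on arrays 1 and 2 and the complement gene C1qb at 995, 1505 and 1287. Endothelial and stellate cell markers had a median of 48.9 over 10 probes, bile-duct markers 69.5 over 4, erythroid markers 50.4 over 6 and lymphocyte markers 37.6 over 5. Ms4a1, a marker of B cells, gave 201, 160.5 and 168 in Cy3. Pdgfrb, of stellate cells, was at 2527, 13944 and 10819 in Cy3 and was lowest on array 1.

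Lists of other organs had medians of 41.5 to 56.5, against 57.7 over all named probes and 49.9 over all probes, and some of their members were dim. Muscle and heart genes had a median of 56.5 over 21 probes, with Actc1 among the brightest and Myl3, a myosin light chain, at 160.5, 200 and 214 in Cy3. Brain genes had a median of 49.2 over 17 probes, and Neurod2, a neuronal transcription factor, gave 1356, 16657 and 11068 in Cy3 and 1445, 17335.5 and 7459 in Cy5. Testis and embryo genes had a median of 51.6 over 20 probes, with Afp saturated and Pax6 at 140.5, 127 and 134.5 in Cy3. The design text of the deposit names intestine in 1 sentence on RNA extraction where the labels name liver. Genes of pancreas, gut and kidney had a median of 41.5 over 6 probes. Vil1, of the intestinal brush border, gave 287.5, 826.5 and 906 in Cy3, and Cdx2, an intestinal transcription factor, gave 1668, 5832 and 4316.5. Whether probes such as those of Afp, Neurod2, Cdx2 and Actc1 caught other transcripts was not tested.

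**Figure D2:**
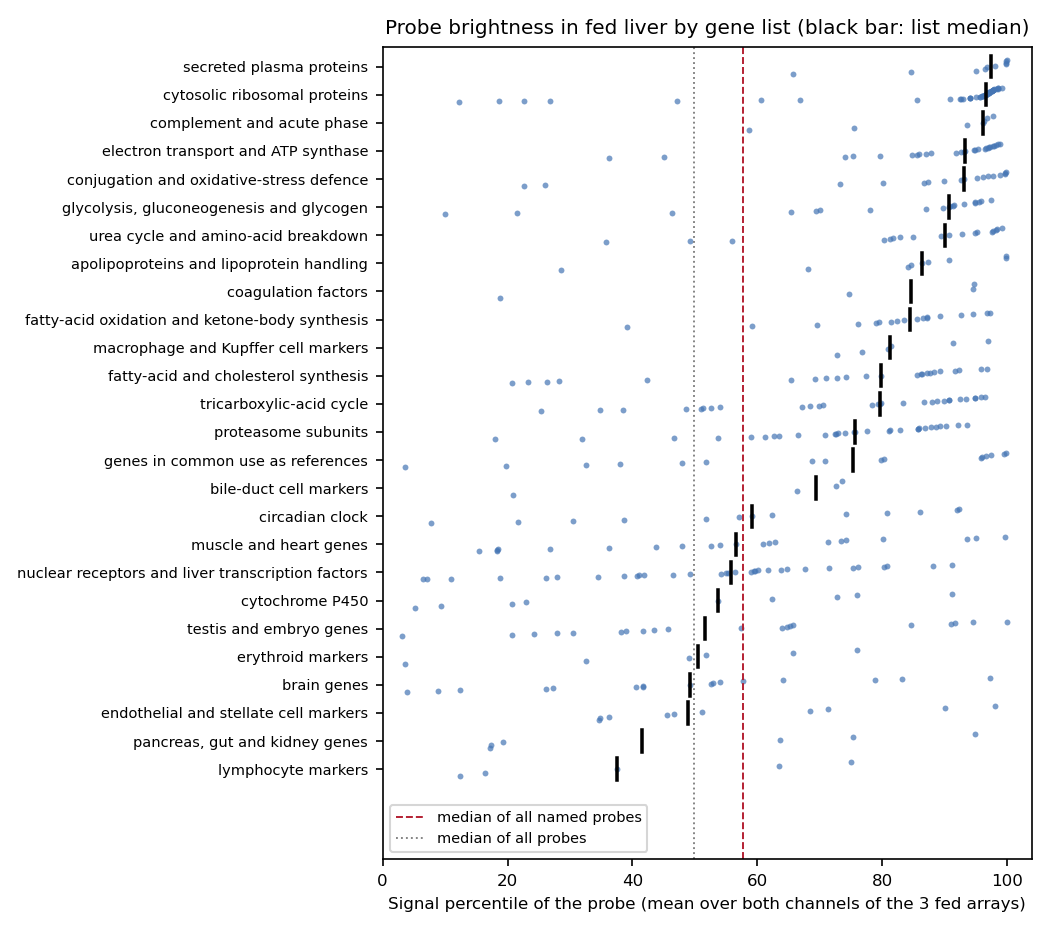
Percentile of each probe, averaged over both channels of the 3 fed arrays, for 26 gene lists in order of their median (black bar), with the medians of all named probes (57.7) and of all probes (49.9) as vertical lines. Plasma proteins and ribosomal proteins crowd at the right with medians of 97.4 and 96.6, and lymphocyte markers have the lowest median, 37.6.

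The genes in common use as references spanned nearly the whole range. Their 16 probes had a median of 75.3, from Eef1a1 and B2m among the brightest to a probe of Tfrc, the transferrin receptor, at 134, 139 and 138 in Cy3. Tbp, the TATA-binding protein, gave 303, 450 and 419 in Cy3 and 170, 331 and 176 in Cy5. Gusb, a lysosomal glucuronidase, gave 176, 240 and 242 in Cy3 and 51, 97 and 54 in Cy5.

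Intermediate probes were those between the 45th and 55th percentile of both channels on every fed array with a value. There were 109, of which 50 were named, with signals of 258 to 703 in Cy3 and 127 to 560 in Cy5. Only 21 of them had a usable spot on all 3 arrays, since a probe with a spot left out had fewer conditions to meet. The class was not stable, since only 21 of the 109 were still in it without array 1 and 27 with outlier spots kept. Among the listed genes Col1a2, a chain of type I collagen, was the sole intermediate probe, with 279 and 591 in Cy3 and 156 and 495.5 in Cy5 on arrays 1 and 2. The next genes were chosen after their values were seen, as the named probes nearest the median. Vps4b, an ATPase of endosomal sorting, was measured on all arrays, with 261, 554 and 525 in Cy3 and 140, 405 and 265 in Cy5. Klhl28, Emilin3, Tfap2b and Smc3, a subunit of cohesin, each had the spot on array 2 left out, and Mocs1, of molybdenum cofactor synthesis, that on array 3.

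Near-background probes were those at or below the 95th percentile of the 162 negative-control spots of the same array and channel on every fed array with a value. That limit was 177, 111 and 142 units in Cy3 and 36, -20 and -6.1 in Cy5 on arrays 1, 2 and 3. There were 150 such probes, 0.740% of all, with signals of 78 to 172 in Cy3 and -82.5 to 36 in Cy5. Of these, 123 had no gene name and 27 had one, which is 1.14% of the 10750 probes without a name and 0.294% of 9189 nuclear named probes. None of the 415 probes on the lists of genes was near background by this rule, against 0.740% of all probes. The rule asks for every array in both channels. The signals of Pax6 and of the dim Tfrc probe given above were under the Cy3 limit on arrays 1 and 3. The dimmest named probes were chosen after their values were seen. Eif1ad, related to a factor of translation initiation, gave 107, 90 and 109 in Cy3 and 27, -82.5 and -48 in Cy5. Cenpe, a kinesin of the kinetochore, gave 121.5, 89 and 120 in Cy3, and Kitl, the ligand of the receptor Kit, gave 130.5, 96 and 123. Lhx1, a homeobox factor of the embryo, gave 109, 101 and 118, and Cul1, the scaffold of a ubiquitin ligase, 123, 91 and 123. A signal at this limit is not detectable at this sensitivity and does not show that the transcript was absent.

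Agreement between the 3 arrays was much closer for arrays 2 and 3 than for either with array 1. After normexp correction and quantile normalization over all 24 channels, Pearson's r of log2 signal over the 13221 probes was 0.992 for Cy3 between arrays 2 and 3, against 0.854 between arrays 1 and 2 and 0.859 between arrays 1 and 3. In Cy5, where the same reference lay on all arrays, r was 0.986, 0.874 and 0.905. Within an array, Cy3 and Cy5 had an r of 0.980, 0.996 and 0.996. These are correlations across probes that share spot, slide and normalization, so they are given as descriptions. The log2 ratio of Cy3 over Cy5 correlated at 0.547 between arrays 1 and 2, 0.096 between arrays 1 and 3 and 0.113 between arrays 2 and 3.

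Ranks showed the same pattern. Of the 203 probes in the top 1% of an array when every spot is counted, 188 were shared between arrays 2 and 3 in Cy3, against 96 between arrays 1 and 2 and 99 between arrays 1 and 3. In Cy5 the shared numbers were 176, 116 and 138. Between the dyes of a single array they were 167, 193 and 183. The top spots of Cy3 and Cy5 on 1 slide were thus shared more often than those of a dye between array 1 and the other arrays.

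The median SD between the 3 arrays was 0.362 log2 units for Cy3, 0.310 for Cy5 and 0.145 for their ratio. Without array 1 it fell to 0.0956 for Cy3, 0.129 for Cy5 and 0.0816 for the ratio. On array 1, 919 probes were at least 2-fold lower and 1574 at least 2-fold higher in Cy5 than the mean of arrays 2 and 3, 18.9% of the 13221. Between arrays 2 and 3 the number was 40. In Cy3 26.4% of probes differed 2-fold on array 1, and the difference in Cy3 followed that in Cy5 with r = 0.945 across probes. The ratio of the dyes differed 2-fold in only 0.272% of probes.

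**Figure D3:**
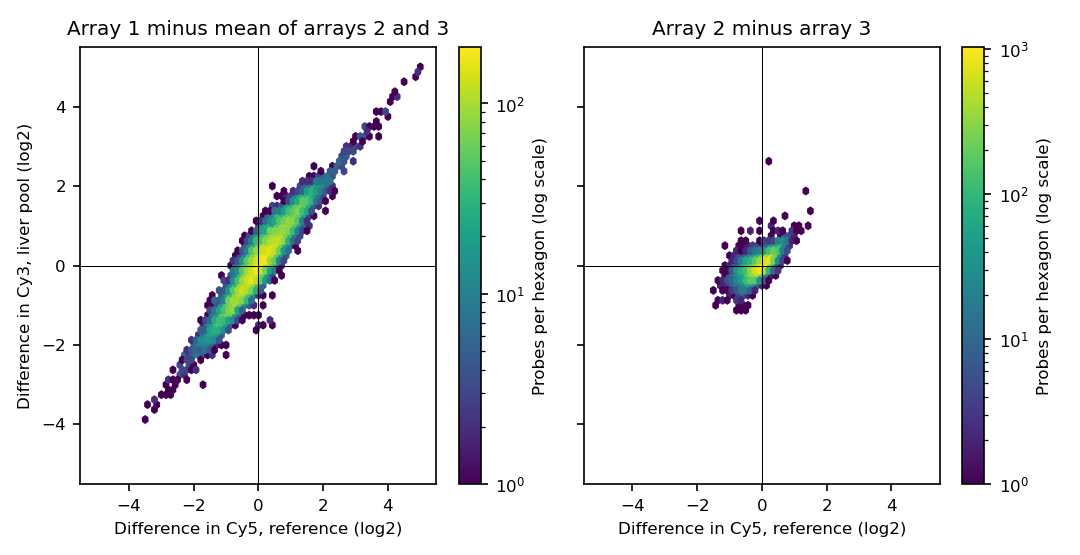
Difference in normalized log2 signal of Cy3 (vertical) against that of Cy5 (horizontal) for 13221 probes, array 1 minus the mean of arrays 2 and 3 on the left and array 2 minus array 3 on the right, with colour for the number of probes per hexagon on a log scale. On the left the probes spread along the diagonal (r = 0.945), and on the right they stay near 0.

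The differences on array 1 are given by list. Of 21 probes for electron transport and ATP synthase with all spots usable, 13 were at least 2-fold higher on array 1 in both channels, and so were 19 of 45 for ribosomal proteins. Over all probes this held for 1437 of 13221. Among the lists of other organs, median differences in Cy5 were -0.31 log2 units for brain, -0.27 for muscle and heart, -0.05 for testis and embryo and 0.38 for pancreas, gut and kidney, against 0.07 over all probes. The circadian clock list had -0.34. Among the brightest, 2 of 78 probes were 2-fold lower on array 1 in Cy5 and 10 in Cy3, against 919 and 1360 of 13221 over all probes. The raw signals of Neurod2 given above were lowest on array 1 in both channels.

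The reference on the other arrays showed how far such differences went with the day of quantification. Over all 12 arrays, Cy5 signals of 11302 probes correlated at 0.953 to 0.993 in the 19 pairs of arrays from a common day and at 0.878 to 0.983 in the 47 pairs from different days. Fed array 1 reached 0.978 and 0.988 with the arrays of its own day and 0.878 to 0.931 with the 9 others. Actc1 gave 10315 to 14609 units in Cy5 on the first day, 31203 to 64554 on the second and 15676 to 21914 on the third. Ptms gave 9075 to 16343, 28624 to 59370.5 and 13534.5 to 21019. In raw units Mgst1 did not separate the first day from the second, with 34406 to 44852 and 41041 to 48422, and gave 23384.5 to 35422.5 on the third. After normalization Mgst1 did separate them, at 15.28 to 15.40 log2 units on the first day and 14.48 to 15.19 on the second. Normalized Actc1 went the other way, at 13.93 to 14.27 and 14.78 to 15.46, and Trf overlapped, at 15.28 to 15.35 and 15.02 to 15.40. Slide, hybridization and scan may all go with the quantification day, and their parts were not tested.

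**Figure D4:**
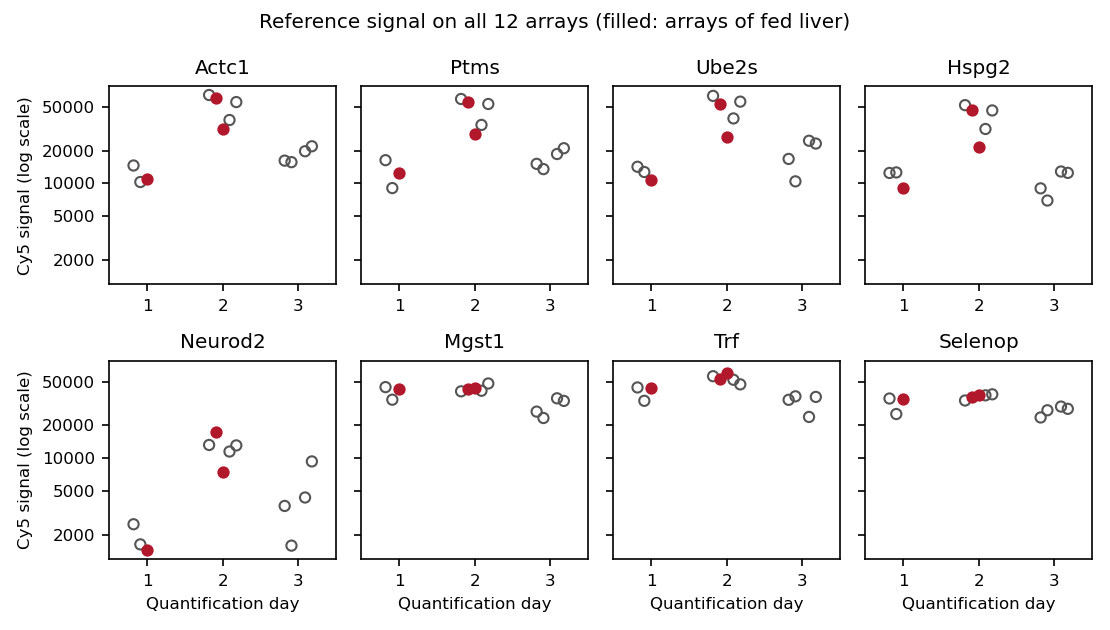
Cy5 signal of the common reference on all 12 arrays (log axis, scanner units) by quantification day for 8 probes, with fed arrays filled. Before normalization, Actc1, Ptms, Ube2s and Hspg2 were highest on the second day, for example Actc1 at 31203 to 64554. So was Trf, at 33608 to 44534.5 on the first day and 47529 to 60612.5 on the second. The raw ranges of Mgst1 and Selenop overlapped between these days.

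The mean ratio of Cy3 over Cy5 on the fed arrays compares fed livers with a fed reference of the same liver numbers, so dye, labelling and pool cannot be told apart in it. In limma, 31 of 18904 tested probes (0.164%) had a ratio different from 1 at an adjusted p below 0.05, and 1674 at an unadjusted p below 0.05, 1050 of them higher in Cy3. All 31 were higher in Cy3, by 1.64-fold to 3.49-fold with a median of 2.04-fold, and 29 had a name. None was among the 83 brightest. For 17 of the 31 only 2 arrays were measured, and the spot on array 3 was left out for 51.6% of them, against 10.1% of all probes tested.

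Alas1, the first enzyme of haem synthesis, had log2 ratios of 2.14 on array 1 and 1.46 on array 3, a mean of 1.80 ± 0.16 (SE, adjusted p = 0.0112 in limma). Ambp, the precursor of alpha-1-microglobulin and bikunin, had 1.89 and 1.60 on arrays 1 and 2, a mean of 1.74 ± 0.13 (adjusted p = 0.00536). Ctsb, a lysosomal protease, had 2.08 and 0.96, Ebp, an isomerase of cholesterol synthesis, 1.81 and 1.18, and the ribosomal protein gene Rpl10 1.34 and 1.14 on these arrays. Dhrs1, a short-chain dehydrogenase, was measured on all arrays, with 1.88, 1.92 and 0.72. Every usable spot of these genes was brighter in Cy3.

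The called probes held 4 of 18 tested for urea cycle and amino-acid breakdown (Ass1, Asl, Mat1a and Cbs) and 4 of 28 for the tricarboxylic-acid cycle list (Ogdh, Pdhb, Idh1 and Mdh1), against 31 of 18904 over all probes. That list was wider than the mitochondrial cycle, since Idh1 and Mdh1 are described as soluble enzymes and Pdhb as pyruvate dehydrogenase. Ribosomal proteins held 2 of 48. Median log2 ratios were 0.28 for the urea cycle list, 0.32 for the tricarboxylic-acid cycle and 0.30 for proteasome subunits, of which none was called, against -0.02 over all probes. The number called was 0 without array 1, 133 without array 2 and 847 without array 3. It was 93 with loess within each array, and 0 with plain background subtraction, with the ratio of the scanner software, with outlier spots kept or with the spread taken from all 12 arrays.

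**Figure D5:**
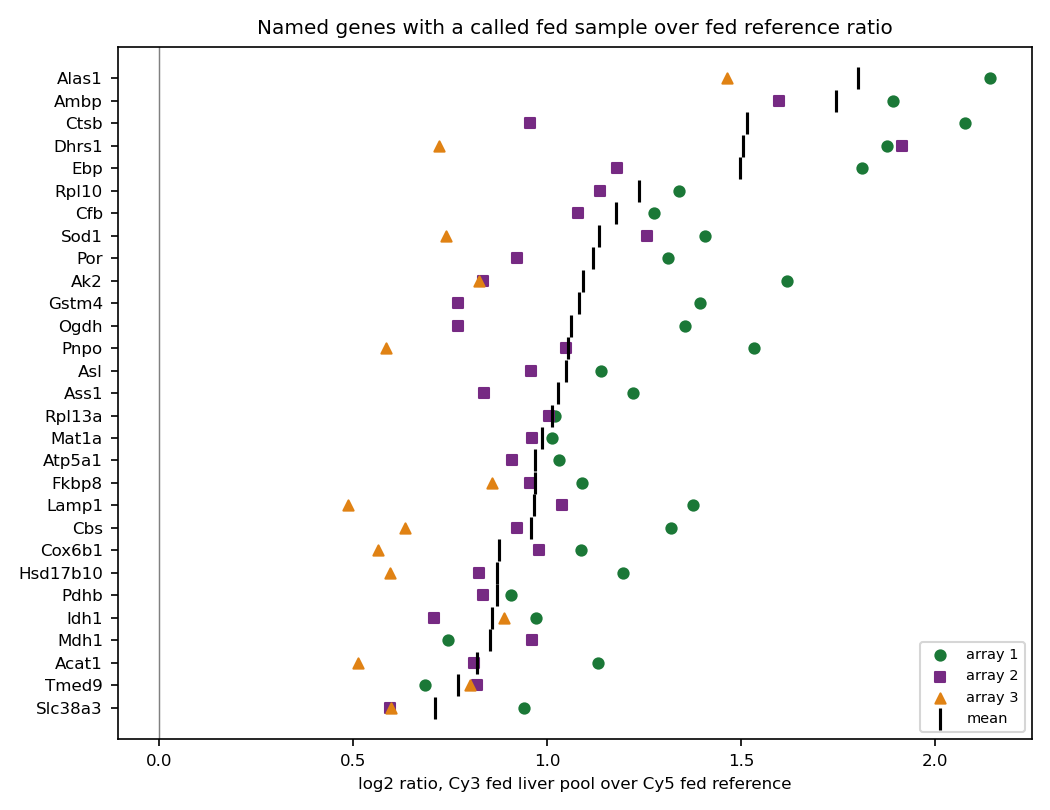
Log2 ratio of Cy3 (fed liver pool) over Cy5 (fed reference) on each usable fed array for the 29 named probes called in limma, with the mean as a bar. All points lie above 0, and array 1 holds the highest for most genes, as for Alas1 at 2.14.

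A few probes of named genes had ratios that differed widely between the 3 arrays, chosen as the largest ranges with all spots usable. A probe of KIF3B, a kinesin motor, had log2 ratios of -0.11, 2.36 and -0.07 on arrays 1, 2 and 3, from 200, 1951 and 277 units in Cy3. Another probe of KIF3B was near background, with 149, 106 and 119 units in Cy3, and its ratios were 0.47, 0.07 and 0.06. Tgtp1, a GTPase induced by interferon, had 1.36, 0.07 and -0.35, and Psmb8, an immunoproteasome subunit, 1.22, 0.45 and -0.13. Tgtp1 and Psmb8 were highest on array 1. Crot, a peroxisomal carnitine transferase, had 0.02, 0.35 and -0.88 and was lowest on array 3. Creld2 had -0.28, 0.65 and -0.66, Ptprf, a receptor phosphatase, 1.24, 0.45 and -0.02, and Rrp1, of ribosome biogenesis, -0.56, -0.07 and -1.32. No test was made of these ranges.

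Whether the transcripts brightest in fed liver changed with fasting was read from the fit over all 12 arrays, in which the fed arrays serve every comparison. At an adjusted p below 0.05 and at least 1.4-fold, limma called 1 of 20110 probes at 12 h (0.00497%), 1 of 20110 at 24 h (0.00497%) and 2 of 20081 at 72 h (0.00996%). None of the 83 brightest was called. Their median log2 differences from fed were -0.11, -0.06 and -0.05 at 12, 24 and 72 h, against -0.0056, -0.0022 and -0.015 over all probes. With loess within each array they were 0.046, -0.046 and 0.098, against 0.0049, -0.014 and 0.0070 over all probes. The sign at 12 and 72 h thus changed with the normalization. These medians are descriptions, since the 83 were chosen for high signal on the fed arrays that are the baseline, 17 of them were saturated there in both channels, and a probe that was not called is not shown to be unchanged. Ttr had log2 ratios of 0.09, 0.21 and 0.01 on the fed arrays, where it was saturated, and -1.84, -1.39 and -0.52 on the arrays at 72 h. Its Cy5 signals at 72 h were 65140 to 65158 units, at or next to saturation. Mgst1, which was not saturated on the fed arrays, had 0.00, 0.17 and -0.05 there and -1.47, -0.95 and -0.19 at 72 h. Eef1a1 went the other way, with -0.13, 0.39 and 0.12 on the fed arrays and 0.13, 1.24 and 0.96 at 72 h. Of the 83 brightest, 57 had a difference below 0 at 72 h and 26 above 0, against 10718 and 9363 of 20081 over all probes. With loess within each array this turned round, with 12 of the 83 below 0 and 71 above 0.

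The called probes, named since they were so few, were those of the metallothioneins Mt1 and Mt2, which bind zinc and copper. Mt1 gave 4778, 5166 and 6558 units in Cy3 on the fed arrays and 4463.5, 5286 and 5387 in Cy5. It was higher by 3.02 ± 0.24 log2 units at 12 h (SE, adjusted p = 0.00469 in limma), by 2.47 ± 0.22 at 24 h (adjusted p = 0.0107) and by 3.51 ± 0.22 at 72 h (adjusted p = 0.000389). Mt2 was higher by 3.80 ± 0.43 at 72 h (adjusted p = 0.0309). At 12 and 24 h its differences were 3.61 ± 0.43 (adjusted p = 0.0504) and 3.17 ± 0.43 (adjusted p = 0.170), which were not called. The fit at 12 h left out the Mt1 spot of 1 array as an outlier. In Cy3, Mt1 was saturated on 1 of 3 arrays at 12 h and on 2 of 3 at 72 h, and Mt2 on 2 of 3 at 72 h, so that these differences rest in part on saturated spots and are not exact. Within the first day, the log2 ratio of Mt1 was -0.24 on the fed array, 2.79 on the array at 12 h and 2.15 on that at 24 h. Within the second day it was -0.17 on the mean of the fed arrays and 3.32 at 72 h.

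These counts moved with the arrays and with the handling of the day. With the quantification day as a block, 4675, 2414 and 12 probes were called at 12, 24 and 72 h, or 23.2, 12.0 and 0.060% of those tested. Among the 83 brightest 12, 4 and 0 were called, or 14.5, 4.82 and 0%. With array weights 1739, 135 and 1120 probes were called, or 8.65, 0.671 and 5.58%. Among the brightest 15, 0 and 12 were then called, or 18.1, 0 and 14.5%. The estimate of the array weights stopped before it reached its tolerance. With the replicate number as a block no probe was called at 24 h. Without fed array 1 the counts were 0, 0 and 1, without fed array 2 they were 1, 0 and 1, and without fed array 3 they were 0, 0 and 1. At 12 h the count was also 0 without the third array at 12 h, 2 without the first array at 24 h or the third at 72 h, and 3 without the second array at 12 h or the third at 24 h. At 24 h it was 7 without the third array at 24 h. At 72 h it was 4 without either the second array at 12 h or the third at 24 h, and 1 without the third array at 12 h, the second at 24 h, or the first or the second at 72 h. The second array at 12 h and the third at 24 h, both of the first day, had the lowest Cy3 medians of the series, 158 and 89 units.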

How the data were processed

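Liver RNA was measured on 12 Agilent 2-colour arrays, 3 per group, of which the 3 fed arrays are described here. Per the file headers, the deposited intensities are median pixel signals and local backgrounds that the authors retrieved with Feature Extraction 6.1.1, not normalized. The deposited log10 ratios of the same software served as an alternative, and the deposited flags for saturation, outliers and background, coded 0 or 1, as filters. The deposited value table held those log10 ratios with the sign turned (257352 of 257352 values within 0.0001). The authors' own normalization was by quantiles with a split-factor ANOVA, not repeated here. Local background medians were subtracted for the signals printed.

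For the fits, signals were corrected with normexp (offset 50), quantile-normalized over 24 channels, filtered on being well above background and tested in limma 3.58.1 (R 4.3.3) with Benjamini-Hochberg adjustment, after the script was tested on simulated data. In the fed fit a probe needed 2 measured arrays. Arrays were grouped by title. Members and lists were chosen with earlier results of these data known. Named genes were the 25 brightest, each list's brightest members (otherwise 2 to 4, from its highest to its dimmest), intermediate and dim list members, the highest called ratios, the 8 widest ratio ranges, and genes whose probes differed most. A few of these are not reported here. Of 20280 probes, 8457 matched a RefSeq symbol (GRCm38.p6), and 78 whose description named another gene stayed out of the lists. Whether pools came from separate cages or litters is not given in the sources used here, so p-values measure the spread between arrays only. The number of arrays limits the precision. Alternatives included loess, plain subtraction, outlier spots kept, no filter, day and replicate blocks, array weights and leaving out each array. Probe sequences were not used here.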

Additional observations from a re-analysis of the deposited data

How the results depend on the processing

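Of 100 alternative settings, 50 gave values within 1.5 times the main value, up or down, and 50 did not. The brightest probes numbered 83, 493 with the top 5%, and 80 to 135 when a fed array was left out (135 without array 1). Intermediate probes numbered 109, 63 with outlier spots kept, 735 between the 40th and 60th percentile, and 110 to 176 with an array left out. Near-background probes numbered 150, 46 where the software did not mark them well above background, 665 in the lowest 10%, and 169 to 284 with an array left out. The called fed ratios numbered 31, 93 with loess, 0 with plain background subtraction, with the ratio of the scanner software, with outlier spots kept or with the spread from all 12 arrays, and 0 to 847 with an array left out. The median SD ran from 0.0956 to 0.429 in Cy3, 0.129 to 0.372 in Cy5 and 0.0816 to 0.164 for the ratio with an array left out, each lowest without array 1. The cause of these changes was not tested.

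In the fasting comparisons, calls at 12 h numbered 1, 3 with outlier spots kept, 4675 with the quantification day as a block, 1739 with array weights and 0 to 3 with an array left out. At 24 h they numbered 1, and 2, 2414, 135 and 0 to 7 under the same settings. At 72 h they numbered 2, 0 with loess, 12 with the day as a block, 1120 with array weights and 1 to 4 with an array left out. With the replicate number as a block, 2, 0 and 2 probes were called at 12, 24 and 72 h. The labels give no meaning to the shared numbers. Deviations of same-numbered fed and fasted arrays correlated at -0.39 to 0.06 at 12 h, 0.10 to 0.45 at 24 h and -0.37 to 0.04 at 72 h over 11302 probes. For arrays of different numbers the ranges were -0.31 to 0.42, -0.43 to 0.30 and -0.45 to 0.61. The ranges overlap at each time, so they do not settle whether the numbers pair arrays. Without a fed array, the remaining pair or pairs set the spread. Saturated spots bound the brightest signals, and dim spots near the negative controls have no order.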
